A study of Mus musculus with 18 samples.

Results

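The genes described here are 38 genes of cholesterol and fatty acid synthesis and of its control, taken by gene symbol from a table of 24028 genes. All 38 were found in the table, and all 38 were among the 13602 genes with enough counts to be tested. They comprise 20 enzymes of sterol synthesis (8 of the mevalonate arm and 12 of the steps after it), 10 regulators and sterol handling genes, and 8 enzymes of fatty acid synthesis. Polyadenylated RNA was sequenced from C2C12 cells, a line of mouse myoblasts, the proliferating precursors of muscle fibres. Each of 3 clonal lines carried a doxycycline-inducible, puromycin-selected transgene: codon-altered mouse Dux (mDUX), codon-altered human DUX4 (HDUX4), or firefly luciferase as the control protein. Every line was grown for 36 h with doxycycline at 2 µg/ml (induced) or without it (uninduced), in 3 separate cultures each, giving 18 libraries in 6 groups. Each transgene was measured in a single clone, so clone and transgene cannot be told apart, and the luciferase line is the only measure of doxycycline with an induced protein other than these factors.

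Cells build cholesterol from acetyl-CoA. The mevalonate arm makes isoprenoid units and joins them to farnesyl diphosphate, squalene synthase commits these to sterols, and a chain of oxidation, reduction and isomerisation steps turns lanosterol into cholesterol. Transcription of these enzymes is driven by the sterol regulatory element binding proteins (SREBPs), encoded by Srebf1 and Srebf2. When membranes hold enough sterol, Insig proteins keep the SREBP escort Scap in the endoplasmic reticulum and the enzymes fall together. Fatty acid enzymes are also SREBP targets, mainly of the Srebf1 product, while the cholesterol exporters Abca1 and Abcg1 answer to the oxysterol-sensing liver X receptors. The proteins made by Dux and DUX4 bind DNA through paired homeodomains and act in the early embryo, and DUX4 expression in muscle is linked to facioscapulohumeral dystrophy.

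The libraries held 11010586 to 17179642 counts, of which the 38 genes took 0.394% to 1.25%. Induced mouse Dux library 1 stood apart from its replicates. Its counts differed from those of libraries 2 and 3 by a chi-square of 34.1 and 36.5 per degree of freedom, against 2.14 between libraries 2 and 3. Uninduced mouse Dux library 1 also stood apart, though less, with 5.16 and 5.23 against 1.26 between libraries 2 and 3. Replicates of the human DUX4 and luciferase groups differed by at most 2.79. Counts over the 38 genes are also given without induced mouse Dux library 1, as are the values of a few genes. Uninduced mouse Dux library 1 was left out only among the fits that left out each library in turn. The myoblast list (Myod1, Myf5, Des, Cdh15, Itga7, Vcam1 and Msc) summed to 1391 to 1505 CPM (counts scaled to a common library size) in induced and 1309.5 to 1368 CPM in uninduced mouse Dux libraries, to 174 to 186 CPM in induced and 513 to 536 CPM in uninduced human DUX4 libraries, and to 1985 to 2112 CPM in induced and 2572 to 2605 CPM in uninduced luciferase libraries. With mouse Dux its members went both ways: of 6 tested, Vcam1 (1.14) and Des (0.40) were higher and Cdh15 (−1.80), Myf5 (−2.19), Myod1 (−0.48) and Itga7 (−0.42) lower (log2 fold changes). With human DUX4 and with luciferase, 5 of the 6 were called lower and 1 higher, where 33.1% and 16.4% of all genes were lower. Against the uninduced luciferase clone, 5 were lower and 1 higher in the uninduced mouse Dux clone, with a lowest log2 difference of −8.68. All 6 were lower in the uninduced human DUX4 clone (median −2.31). Of all genes, 33.1% and 37% were lower in these clones. Of the lipid-making cell types that could be confused with these cells, 7 adipocyte markers summed to at most 32.0 CPM in any library, with Pparg at 30.6 ± 1.15 CPM in induced and 11.5 ± 1.43 CPM in uninduced human DUX4 libraries (SD, n = 3 each), with Lep and Cfd at 0 counts in all 6 groups, and 5 hepatocyte markers summed to at most 0.622 CPM. The 4 macrophage markers summed to 32.1 to 34.1 CPM in induced and 3.32 to 4.36 CPM in uninduced human DUX4 libraries, with Ptprc at 0 counts in both groups, and to at most 3.29 CPM in the other lines. The clones differed in the muscle genes they expressed. Markers of differentiated muscle (Myog, Myh3, Ckm, Actn3 and Mylpf) summed to 459 to 502 CPM in induced and 879 to 918 CPM in uninduced luciferase libraries, 21.7 to 23.9 CPM in induced and 67.7 to 67.9 CPM in uninduced mouse Dux libraries, and 11.5 to 14.2 CPM in induced and 20.4 to 21 CPM in uninduced human DUX4 libraries. The part of these marker levels in the results was not tested. These bulk measurements cannot tell fewer cells of a type from less RNA per cell.

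Promoter sequence was available for 29 of the 38 genes (RefSeq, GRCm38.p6). The 160 bases before the RefSeq start are shown for a few sterol enzymes, a fatty acid enzyme and a cholesterol exporter. They are examples of the groups whose counts are compared. The gene positions given below are from GENCODE, whose starts can differ. The stretches of Idi1 and Lss run past the GENCODE starts into the gene. The letters searched, on both strands, were TCACNCCAC (a sterol regulatory element, the SREBP site), CCAAT (the site of the SREBP partner NF-Y, read as ATTGG on the other strand) and CACGTG (an E-box). Matches are in capitals.
Hmgcs1 (chr13:119690191-119690350, plus strand): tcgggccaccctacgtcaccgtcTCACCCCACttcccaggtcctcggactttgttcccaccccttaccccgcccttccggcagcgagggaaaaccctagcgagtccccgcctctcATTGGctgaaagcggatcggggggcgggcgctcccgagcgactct
Idi1 (chr13:8885446-8885605, plus strand): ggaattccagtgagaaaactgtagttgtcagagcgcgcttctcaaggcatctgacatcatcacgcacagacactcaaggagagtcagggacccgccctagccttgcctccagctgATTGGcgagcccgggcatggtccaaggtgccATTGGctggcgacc
Lss (chr10:76531445-76531604, plus strand): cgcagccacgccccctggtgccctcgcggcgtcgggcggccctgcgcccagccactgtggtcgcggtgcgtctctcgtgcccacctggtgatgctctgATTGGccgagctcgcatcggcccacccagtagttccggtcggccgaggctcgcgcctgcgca
Nsdhl (chrX:72918361-72918520, plus strand): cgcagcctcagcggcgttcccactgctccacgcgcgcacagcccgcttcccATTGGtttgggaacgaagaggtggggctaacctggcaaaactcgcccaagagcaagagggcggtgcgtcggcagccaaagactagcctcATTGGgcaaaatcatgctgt
Fasn (chr11:120824548-120824707, minus strand): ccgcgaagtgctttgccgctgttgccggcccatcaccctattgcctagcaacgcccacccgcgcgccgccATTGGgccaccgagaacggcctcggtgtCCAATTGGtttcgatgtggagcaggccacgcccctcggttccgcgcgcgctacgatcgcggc
Abca1 (chr4:53159896-53160055, minus strand): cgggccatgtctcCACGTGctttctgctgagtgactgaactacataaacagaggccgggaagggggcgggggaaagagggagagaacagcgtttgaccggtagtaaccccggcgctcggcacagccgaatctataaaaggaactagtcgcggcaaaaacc

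Some genes have several annotated starts (37 for the 29 genes), and a gene was counted if the 250 bases before any of its starts held the letters. CCAAT was found for 16 of the 17 sterol enzymes with a sequence (94.1%), 5 of 7 regulators (71.4%) and 1 of 5 fatty acid enzymes (20%), against 37.5% of all 27025 genes with a promoter. That fatty acid enzyme was Fasn, in whose window a forward and a reverse CCAAT overlap in the run CCAATTGG. The strict sterol regulatory element was found only before Hmgcs1 among these genes (3.45% of the 29), against 1.22% of all genes, and the E-box before 6 of 29 (20.7%), against 6.86% of all genes. These are matches of letters and were not tested as binding sites.

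The sterol enzymes fell with doxycycline in all 3 lines, the luciferase line included. The threshold for a call was an adjusted p of 0.05 (edgeR's quasi-likelihood test, Benjamini-Hochberg adjustment over all 13602 genes). With mouse Dux, 19 of the 20 sterol enzymes were called lower and 1 higher, with a median log2 fold change (induced over uninduced) of −1.11. With human DUX4, 16 were called lower and 2 higher, with a median of −0.68. With luciferase, 19 were called lower and 0 higher, with a median of −0.93. The median over all genes tested was −0.0053 with mouse Dux and 0 in the other 2 responses. The shares of all genes called lower were 34.8% with mouse Dux, 33.1% with human DUX4 and 16.4% with luciferase. Those called higher were 34.1%, 34.4% and 14.7% in the same order.

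Over all 38 genes, 32 were called lower and 4 higher with mouse Dux, where 34.8% of all genes were called lower and 34.1% higher. The counts were 29 lower and 6 higher with human DUX4, where 33.1% of all genes were lower and 34.4% higher. In the luciferase line they were 30 lower and 4 higher, where 16.4% of all genes were lower and 14.7% higher. Without induced mouse Dux library 1 the mouse Dux counts were 33 lower and 4 higher. Across the 38 genes, the mouse Dux and luciferase responses had a Pearson r of 0.81 and a Spearman rho of 0.72, against a Pearson r of 0.03 over all 13602 genes. Human DUX4 and luciferase had a Pearson r of 0.58 and a rho of 0.22 (Pearson 0.18 over all genes), and over the 20 sterol enzymes alone a Pearson r of 0.01. Mouse Dux and human DUX4 had a Pearson r of 0.67 and a rho of 0.51 (Pearson 0.25 over all genes). Over the 20 sterol enzymes alone, the Pearson r was 0.30 for mouse Dux and human DUX4 and 0.81 for mouse Dux and luciferase. These are descriptions across genes, which share libraries and are not independent.

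**Figure D1:**
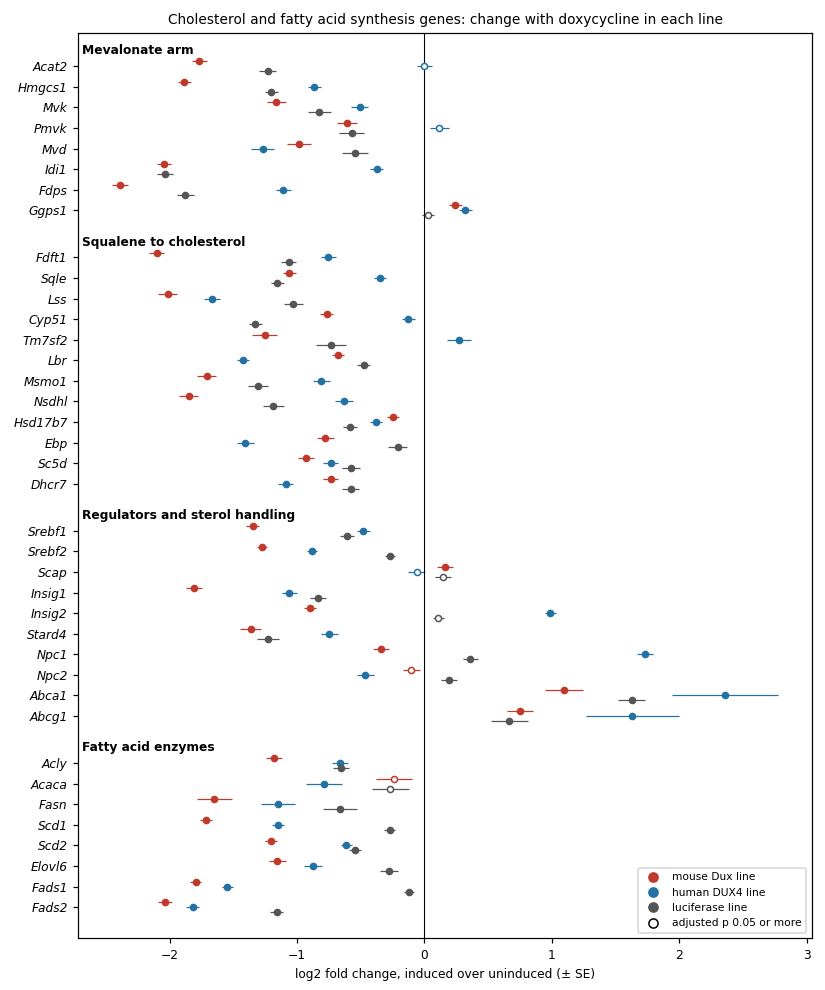
Log2 fold change, induced over uninduced, of each of the 38 genes (x axis, points with ± SE) in the mouse Dux, human DUX4 and luciferase lines, by role; open points had an adjusted p of 0.05 or more. Points of the sterol enzymes lie left of 0 in all 3 lines with few exceptions, and grey luciferase points of the fatty acid enzymes lie nearer 0 than the red and blue ones, except for Acaca.

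The summed level of the 20 sterol enzymes shows how far the lines differed. It was 1101, 1045 and 1058 CPM in induced mouse Dux libraries, against 3004, 2926 and 2926 CPM in uninduced ones. It was 3158, 3091 and 3128 CPM in induced human DUX4 libraries, against 4683, 4681 and 4668 CPM in uninduced ones. The luciferase libraries had 636, 724 and 678 CPM when induced, against 1455, 1458 and 1495 CPM when uninduced. No group overlapped its own control. Human DUX4 libraries after induction still held more sterol enzyme RNA than uninduced luciferase libraries, and than every mouse Dux library.

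**Figure D2:**
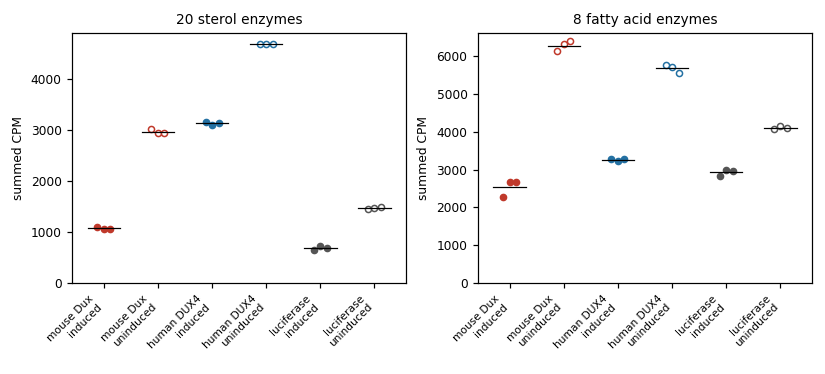
Summed CPM of the 20 sterol enzymes (left) and the 8 fatty acid enzymes (right) in each of the 18 libraries; filled points are induced, open points uninduced, and bars are means of 3. Induced libraries lie below their own uninduced libraries in all 3 lines for both sums.

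In the mevalonate arm, 7 of 8 genes were called lower with mouse Dux, 5 with human DUX4 and 7 with luciferase. The shares of all genes called lower were 34.8%, 33.1% and 16.4% in the same order. Fdps, farnesyl diphosphate synthase (chromosome 3, 89093588 to 89101959, GRCm38), had 77.9, 68.3 and 70.3 CPM in induced mouse Dux libraries, against 385, 369 and 381 CPM in uninduced ones (log2 fold change −2.39, SE 0.0641, adjusted p = 8.21e-17). It had 200.4, 197 and 193 CPM in induced human DUX4 libraries, against 428, 419 and 424 CPM in uninduced ones (−1.11, SE 0.0604). In luciferase libraries it had 41.6, 51.7 and 46.4 CPM when induced, against 167, 167 and 178 CPM when uninduced (−1.88, SE 0.0647, adjusted p = 6.25e-14). Every induced library was below every uninduced library of its line. Another gene model covers 26.7% of the exon bases of Fdps, so part of its reads may belong there.

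Idi1, the isomerase that readies isopentenyl units for joining (chromosome 13, 8885501 to 8892451), had 67.4, 65.5 and 73.1 CPM in induced mouse Dux libraries, against 298, 276 and 276 CPM in uninduced ones. In luciferase libraries it had 19.5, 21.5 and 23.7 CPM when induced, against 89.2, 87.9 and 88.6 CPM when uninduced. Its log2 fold change was −2.04 (SE 0.0572) with mouse Dux and −2.04 (SE 0.0624) with luciferase, and the difference between these responses was −0.005 (95% interval −0.18 to 0.17, adjusted p = 0.983). With library size alone it was −0.27 and was called (adjusted p = 0.00894). The human DUX4 line moved far less, with 271, 278 and 269.9 CPM in induced libraries, against 353, 359 and 350.0 CPM in uninduced ones (−0.37, SE 0.0534).

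Mvd, the decarboxylase that makes isopentenyl diphosphate, fell in all 3 lines. It had 24.6, 21.6 and 21.5 CPM in induced human DUX4 libraries, against 55.1, 54 and 54.2 CPM in uninduced ones (−1.27, SE 0.0887). The mouse Dux line had 25.5, 21 and 17.7 CPM when induced, against 42.9, 44.7 and 39.95 CPM when uninduced (−0.98, SE 0.0916), and the luciferase line 15.3, 16.3 and 14 CPM when induced, against 21.7, 21.9 and 22.8 CPM when uninduced (−0.54, SE 0.0997). No library of an induced group reached its uninduced group. The mouse Dux and human DUX4 responses of Mvd differed by 0.29 (95% interval 0.04 to 0.54), which did not pass the test (adjusted p = 0.0576) but did with the replicate number as a block (adjusted p = 0.0463). Of the upstream enzymes, the acetoacetyl-CoA thiolase gene Acat2 fell in the mouse Dux (−1.77, SE 0.0611) and luciferase lines (−1.23, SE 0.0658), while its human DUX4 value was 0.00062 (95% interval −0.11 to 0.11, adjusted p = 1). The HMG-CoA synthase gene Hmgcs1 fell in all 3 lines (−1.88 with mouse Dux, −0.86 with human DUX4 and −1.20 with luciferase), and the mevalonate kinase gene Mvk did so too (−1.16, −0.51 and −0.82 in the same order). Pmvk, the next kinase, fell with mouse Dux (−0.61) and luciferase (−0.57) and had 0.12 with human DUX4 (adjusted p = 0.17). Ggps1, which makes the geranylgeranyl diphosphate used to prenylate proteins and so lies off the sterol branch, rose slightly with mouse Dux (0.24, SE 0.0505) and human DUX4 (0.32, SE 0.0514) and had 0.03 with luciferase (adjusted p = 0.733). The rise of Ggps1 with mouse Dux ended with library size alone as the scaling, which shifted the median of all genes to −0.25 in that response.

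From squalene to cholesterol, all 12 genes were called lower with mouse Dux and all 12 with luciferase, and 11 with human DUX4. The shares of all genes called lower were 34.8%, 16.4% and 33.1% in the same order. Lss, lanosterol synthase, which closes the sterol rings (chromosome 10, 76531588 to 76557138), had 21.4, 25.8 and 21.8 CPM in induced mouse Dux libraries, against 88.5, 94.3 and 95.5 CPM in uninduced ones (−2.02, SE 0.073, adjusted p = 8.05e-15). It had 67.3, 60.5 and 61.9 CPM in induced human DUX4 libraries, against 202, 205 and 194 CPM in uninduced ones (−1.67, SE 0.0654). The luciferase libraries had 22.5, 20.7 and 21.3 CPM when induced, against 47.8, 40.3 and 43.5 CPM when uninduced (−1.03, SE 0.0746). The groups of each line were apart. The human DUX4 line had the highest uninduced level of the 3 lines.

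Fdft1, squalene synthase, had 42.7, 38.7 and 36.6 CPM in induced mouse Dux libraries, against 168, 172 and 167 CPM in uninduced ones (−2.10, SE 0.061). It had 119.8, 114 and 117 CPM in induced human DUX4 libraries, against 198, 196 and 197 CPM in uninduced ones (−0.75, SE 0.0562). Luciferase libraries had 47.7, 57.1 and 51.7 CPM when induced, against 108, 109.6 and 109.9 CPM when uninduced (−1.06, SE 0.059). The mouse Dux fall was the deepest of the 3, with all groups apart. The exons of Fdft1 overlap those of Ctsb on the other strand over 18.3% of their length, so reads there cannot be assigned with certainty. Sqle, squalene epoxidase, had log2 fold changes of −1.06 (SE 0.0512) with mouse Dux, −0.35 (SE 0.0492) with human DUX4 and −1.16 (SE 0.0517) with luciferase, all called lower.

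Lbr and Tm7sf2 encode reductases for the same sterol step, Lbr also being a receptor for lamin B in the nuclear membrane, and they were called in opposite directions in the human DUX4 line. Lbr had 43.9, 43.8 and 45.6 CPM in induced human DUX4 libraries, against 116, 119 and 123 CPM in uninduced ones (−1.43, SE 0.0453). Tm7sf2 had 16.6, 16.6 and 14.7 CPM in induced human DUX4 libraries, against 14, 13.8 and 11.9 CPM in uninduced ones (0.27, SE 0.093, adjusted p = 0.0151). The call on Tm7sf2 was lost without induced human DUX4 library 1 or 2 or uninduced library 3 (adjusted p up to 0.0806). In the mouse Dux line Tm7sf2 had 10.2, 8.11 and 8.28 CPM when induced, against 22.8, 20.3 and 20.8 CPM when uninduced (−1.25, SE 0.0966), and Lbr 48.9, 47.9 and 49 CPM when induced, against 78.4, 76.7 and 78.3 CPM when uninduced (−0.68, SE 0.0458). With luciferase Tm7sf2 was at 4.48, 4.84 and 4.47 CPM when induced, against 8.25, 7.68 and 6.91 CPM when uninduced (−0.73), and Lbr at 25.8, 27.4 and 28.4 CPM when induced, against 37.7, 36.6 and 39.4 CPM when uninduced (−0.48). Both genes thus fell in the mouse Dux and luciferase lines. Other genes share 12.1% of the exon bases of Tm7sf2 (Vps51, on the same strand) and 10.7% of those of Lbr (Dnah14 and Gm26004). Part of the reads of Tm7sf2 and Lbr may belong there.

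The later enzymes differed in which line moved them most. The demethylase gene Cyp51 fell with luciferase (−1.33, SE 0.0516) and mouse Dux (−0.77, SE 0.05) and slightly with human DUX4 (−0.13, SE 0.0483, adjusted p = 0.0277), which was not called when induced library 2 or 3 or uninduced library 2 of that line was left out (adjusted p up to 0.0957) and with median-of-ratios scaling (adjusted p = 0.0609). The methylsterol oxidase gene Msmo1 and the sterol dehydrogenase gene Nsdhl, which act in turn on the demethylated sterol, fell, with log2 fold changes of −1.71 and −1.85 with mouse Dux, −0.81 and −0.63 with human DUX4, and −1.31 and −1.19 with luciferase. Ebp, the isomerase, and Dhcr7, the reductase of a last step, fell more with human DUX4 (−1.40 and −1.09) than with mouse Dux (−0.78 and −0.74), differences of 0.63 (adjusted p = 1.02e-05) and 0.35 (adjusted p = 0.00138). With library size alone the difference of Dhcr7 was 0.15 and was not called (adjusted p = 0.143). The luciferase call on Ebp (−0.21, adjusted p = 0.0361) was lost whichever of the 6 luciferase libraries was left out (adjusted p 0.0537 to 0.103). The reductase gene Hsd17b7 had −0.25, −0.38 and −0.59 in the mouse Dux, human DUX4 and luciferase lines, and the desaturase gene Sc5d −0.93, −0.74 and −0.57.

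**Figure D3:**
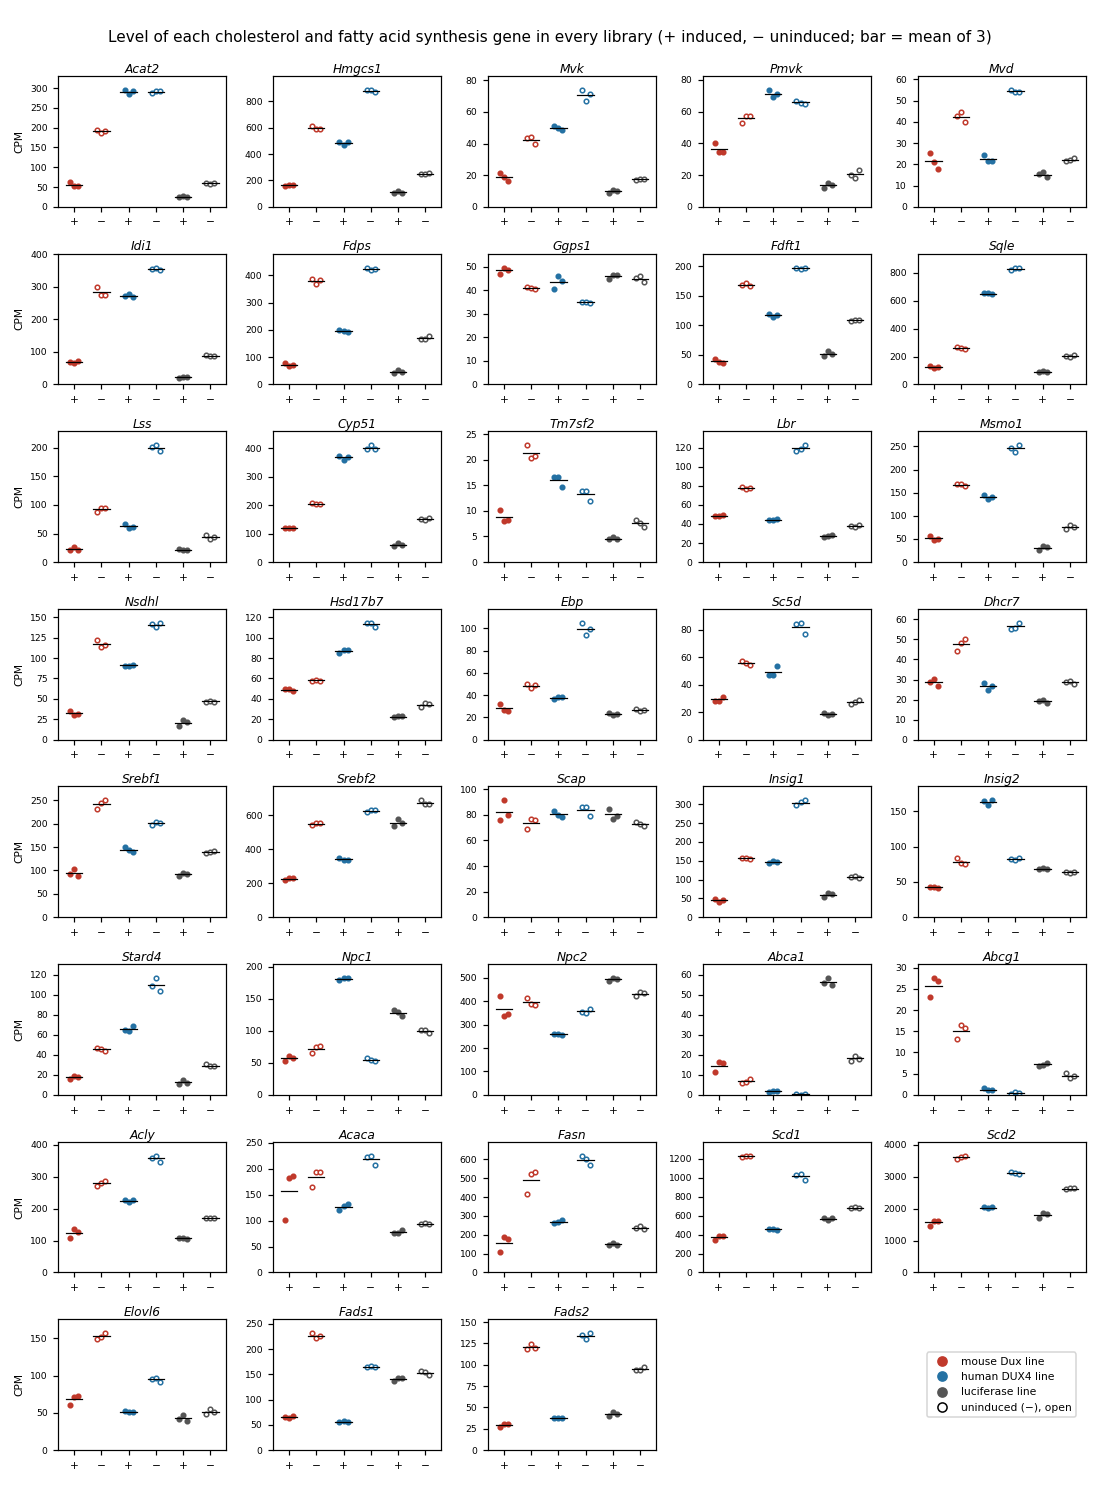
CPM of each of the 38 genes in each of the 18 libraries (y axis from 0, filled points induced, open points uninduced, bars the mean of 3), in the order mouse Dux, human DUX4 and luciferase. Replicates lie close together for most genes. Induced mouse Dux library 1 stands apart for some, such as Acaca, Fasn and Abca1 (low) and Npc2 (high). Uninduced mouse Dux library 1 is low for Fasn. Induced and uninduced points of a line overlap for few of the 38 genes, and the share of all genes that overlap was not counted.

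Of the 10 regulators, 6 were called lower and 3 higher with mouse Dux, 5 and 4 with human DUX4, and 4 and 4 with luciferase. Of all genes, 34.8% were lower and 34.1% higher with mouse Dux, 33.1% and 34.4% with human DUX4, and 16.4% and 14.7% with luciferase. The 30% and 40% of regulators called higher with mouse Dux and human DUX4 lie near those shares. Srebf2, the SREBP gene of sterol synthesis, had 221, 233 and 229 CPM in induced mouse Dux libraries, against 545, 552 and 553 CPM in uninduced ones (−1.27, SE 0.041, adjusted p = 1.40e-15). It had 347, 338 and 336 CPM in induced human DUX4 libraries, against 620.3, 631 and 631 CPM in uninduced ones (−0.88, SE 0.0405). Luciferase libraries had 537, 579 and 554 CPM when induced, against 687, 664 and 663 CPM when uninduced (−0.27, SE 0.04). The groups of each line were apart, and the fall was smaller in the luciferase line than in the mouse Dux line (difference −1.002, adjusted p = 1.91e-11) or the human DUX4 line (−0.61, adjusted p = 2.27e-08).

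Srebf1, whose product favours fatty acid genes, had 93.1, 103 and 88.4 CPM in induced mouse Dux libraries, against 232, 243 and 249.6 CPM in uninduced ones (−1.35, SE 0.0536). It had 149.6, 145 and 139 CPM in induced human DUX4 libraries, against 198, 204 and 202 CPM in uninduced ones (−0.48, SE 0.0524), and 88.1, 94 and 92.9 CPM in induced luciferase libraries, against 137, 140.3 and 142 CPM in uninduced ones (−0.61, SE 0.0533). Both SREBP genes were thus lower in every induced library than in any uninduced library of its line. Per kilobase of exon the level of Srebf1 was 24.8 ± 0.474 CPM and that of Srebf2 93.5 ± 1.85 CPM in uninduced luciferase libraries (SD, n = 3), and 16.9 ± 1.34 and 31.7 ± 0.837 CPM in induced mouse Dux libraries.

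Insig1, itself an SREBP target that retains Scap (chromosome 5, 28071363 to 28078662), had 48.9, 40.6 and 44.5 CPM in induced mouse Dux libraries, against 156, 157 and 156 CPM in uninduced ones (−1.81, SE 0.0629). It had 144, 148 and 145 CPM in induced human DUX4 libraries, against 297, 306 and 310.0 CPM in uninduced ones (−1.06, SE 0.0583), and 54.7, 64.9 and 61.3 CPM in induced luciferase libraries, against 108, 109.8 and 105 CPM in uninduced ones (−0.83, SE 0.061). All 3 lines fell with no overlap. Its relative Insig2 went both ways. Insig2 had 42.7, 42.1 and 41.5 CPM in induced mouse Dux libraries, against 83.6, 76.9 and 75.1 CPM in uninduced ones (−0.90, SE 0.0468), but 165, 159 and 165 CPM in induced human DUX4 libraries, against 82, 80.4 and 84.5 CPM in uninduced ones (0.99, SE 0.0436). In luciferase libraries Insig2 had 68.3, 69.5 and 67.5 CPM when induced, against 63.4, 63.3 and 63.6 CPM when uninduced (0.11, adjusted p = 0.0725), which was called with only the compared groups (0.0262) or library size alone (0.0437). The mouse Dux and human DUX4 responses of Insig2 differed by −1.88 (SE 0.064, adjusted p = 6.97e-15).

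Scap, the escort, had 82.4 ± 7.9 CPM in induced and 73.6 ± 4.37 CPM in uninduced mouse Dux libraries (SD, n = 3 each; 0.16, adjusted p = 0.0337). That call did not hold when induced library 2 or uninduced library 1 was left out (adjusted p up to 0.256) or when no low counts were filtered (adjusted p = 0.0643), and the sign turned with library size alone. Its changes with human DUX4 (−0.06) and luciferase (0.14) did not pass the test. Stard4, which carries cholesterol between membranes, fell in all 3 lines. It had 16.2, 18.9 and 18.1 CPM in induced mouse Dux libraries, against 46.4, 46.2 and 44.1 CPM in uninduced ones (−1.36, SE 0.0823). Human DUX4 libraries had 64.5, 63.6 and 68.7 CPM when induced, against 109, 117 and 104 CPM when uninduced (−0.75), and luciferase libraries 10.8, 14.7 and 12.1 CPM when induced, against 30.5, 29 and 28.4 CPM when uninduced (−1.23).

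Npc1 and Npc2 move cholesterol out of lysosomes in tandem, and Npc1 had the widest gap between the mouse Dux and human DUX4 responses of the 38 genes. Npc1 had 52.2, 61.3 and 58 CPM in induced mouse Dux libraries, against 65.8, 74.4 and 76 CPM in uninduced ones (−0.34, SE 0.0627). It had 179, 183 and 182 CPM in induced human DUX4 libraries, against 57.2, 54.5 and 52.3 CPM in uninduced ones (1.73, SE 0.0615, adjusted p = 5.06e-15). Luciferase libraries had 132, 129.8 and 123 CPM when induced, against 102, 101 and 96.9 CPM when uninduced (0.36, SE 0.0591). The mouse Dux and human DUX4 responses differed by −2.07 (SE 0.0876, adjusted p = 1.52e-13). Npc2 fell with human DUX4 (−0.46, SE 0.0639) and had −0.10 with mouse Dux (adjusted p = 0.166), which became −0.23 and was called (adjusted p = 1.84e-06) without induced mouse Dux library 1. With luciferase it was 0.19 (adjusted p = 0.0267), a call lost whichever of the 6 luciferase libraries was left out (adjusted p 0.0518 to 0.0985).

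The exporters Abca1 and Abcg1 rose in all 3 lines while the enzymes fell. Abca1 (chromosome 4, 53030787 to 53159895) had 11.3, 16.6 and 16 CPM in induced mouse Dux libraries, against 6.03, 6.44 and 7.84 CPM in uninduced ones (1.10, SE 0.148, adjusted p = 2.06e-06). Luciferase libraries had 55.8, 58.3 and 54.8 CPM when induced, against 17.1, 19.6 and 18 CPM when uninduced (1.63, SE 0.108, adjusted p = 6.45e-10). In the human DUX4 line Abca1 was low, with 1.46, 2.18 and 1.94 CPM in induced libraries, against 0.626, 0.128 and 0.302 CPM in uninduced ones (2.36, SE 0.418). Abca1 and Abcg1 were above their controls in every induced library of each line. Abcg1 averaged 25.8 ± 2.42 CPM in induced and 15.1 ± 1.75 CPM in uninduced mouse Dux libraries (0.75, SE 0.103), 1.26 ± 0.243 and 0.402 ± 0.228 CPM in induced and uninduced human DUX4 libraries (1.63, SE 0.365), and 7.17 ± 0.311 and 4.5 ± 0.515 CPM in induced and uninduced luciferase libraries (0.67, SE 0.144; SD, n = 3 each).

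Fatty acid enzymes fell in all 3 lines. 7 of 8 were called lower with mouse Dux, with a median of −1.43, 8 of 8 with human DUX4, with a median of −1.01, and 7 of 8 with luciferase, with a median of −0.41. None was called higher in any line. Of all genes, 34.8%, 33.1% and 16.4% were called lower in these lines, and 34.1%, 34.4% and 14.7% higher. The summed level was 2282, 2665 and 2675 CPM in induced mouse Dux libraries, against 6131, 6327 and 6404 CPM in uninduced ones. In human DUX4 libraries it was 3269.7, 3230.2 and 3270.3 CPM when induced, against 5781, 5725 and 5561 CPM when uninduced. In luciferase libraries it was 2834, 3001 and 2953 CPM when induced, against 4085, 4154 and 4094 CPM when uninduced.

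Fads1 and Fads2 encode the desaturases that make long polyunsaturated fatty acids. Fads1 had 66.3, 63.2 and 66.7 CPM in induced mouse Dux libraries, against 231, 222 and 226 CPM in uninduced ones (−1.79, SE 0.0433, adjusted p = 1.52e-17). It had 55, 58.2 and 56.4 CPM in induced human DUX4 libraries, against 165, 167 and 164 CPM in uninduced ones (−1.55, SE 0.0435). Luciferase libraries had 137, 143 and 144 CPM when induced, against 157, 154 and 149 CPM when uninduced (−0.12, adjusted p = 0.0313), a call lost without induced library 1 or 2 or uninduced library 1 or 2 (adjusted p up to 0.138). Fads1 was the member whose falls in the factor lines exceeded that in the luciferase line the most, with differences of −1.67 for mouse Dux (SE 0.0596) and −1.43 for human DUX4 (SE 0.0598). Fads2, its neighbour on chromosome 19, had 27.1, 30.6 and 31 CPM in induced mouse Dux libraries, against 118, 125 and 119 CPM in uninduced ones (−2.03, SE 0.0535). It had 38.1, 37.9 and 38 CPM in induced human DUX4 libraries, against 134, 130.4 and 137 CPM in uninduced ones (−1.82, SE 0.0518), and in luciferase libraries 40.5, 44.3 and 42.5 CPM when induced, against 94, 93.4 and 97.1 CPM when uninduced (−1.16, SE 0.0512). Every induced library was below its own uninduced libraries for both genes.

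Scd1 and Scd2 encode stearoyl-CoA desaturases, which make monounsaturated fatty acids. Scd1 (chromosome 19, 44394455 to 44407879) had 347, 386 and 389 CPM in induced mouse Dux libraries, against 1216, 1231 and 1231 CPM in uninduced ones (−1.71, SE 0.0468). It had 458, 461 and 449 CPM in induced human DUX4 libraries, against 1031, 1034 and 973 CPM in uninduced ones (−1.15, SE 0.0461), and in luciferase libraries 573, 549.7 and 574 CPM when induced, against 684, 690.0 and 676 CPM when uninduced (−0.27, SE 0.0455). Groups were apart in every line. Scd2 fell, with log2 fold changes of −1.20 (SE 0.0454), −0.61 (SE 0.0449) and −0.54 (SE 0.0449) in the mouse Dux, human DUX4 and luciferase lines. Per kilobase of exon, Scd2 stood at 287 ± 15.8 CPM and Scd1 at 76.4 ± 4.8 CPM in induced mouse Dux libraries, and at 481 ± 4.38 and 139.7 ± 1.46 CPM in uninduced luciferase libraries (SD, n = 3).

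Fasn, fatty acid synthase, had 106, 189 and 176 CPM in induced mouse Dux libraries, against 418, 523 and 535 CPM in uninduced ones (−1.65, SE 0.137). It had 265, 266 and 279 CPM in induced human DUX4 libraries, against 619.9, 604 and 568 CPM in uninduced ones (−1.15, SE 0.134), and in luciferase libraries 147, 157 and 147 CPM when induced, against 238, 244 and 230.2 CPM when uninduced (−0.66, SE 0.135). Library 1 was the lowest of its group in both mouse Dux groups, and without induced library 1 the mouse Dux change of Fasn was −1.45 (adjusted p = 1.11e-22). Acaca, acetyl-CoA carboxylase, showed the same library more sharply, with 101, 182 and 186 CPM in induced mouse Dux libraries, against 165, 193 and 194 CPM in uninduced ones (−0.24, adjusted p = 0.141), and its change was −0.02 without induced library 1 (adjusted p = 0.762), while it was called without induced library 2 or 3 or with library size alone (−0.48). Acaca has the longest summed exons of the 38 genes, 17.1 kb, and Fasn the third longest, 10.9 kb. The part of library quality in these values was not tested. Acaca fell with human DUX4 (−0.79, SE 0.141) and had −0.27 with luciferase (adjusted p = 0.184), called with only the compared groups (8.39e-07). Acly, which makes the cytosolic acetyl-CoA for both pathways, fell, with −1.18, −0.66 and −0.65 in the mouse Dux, human DUX4 and luciferase lines, and the elongase gene Elovl6 with −1.15, −0.87 and −0.27.

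Whether a factor line moved beyond the luciferase line was tested as a difference of responses, in which a negative value means a lower log2 fold change in the factor line. For mouse Dux, 27 of 38 genes were called lower than with luciferase and 3 higher, where 29.5% of all genes were lower and 30.4% higher. By role, 13 of 20 sterol enzymes (median −0.38), 7 of 10 regulators (median −0.61) and 7 of 8 fatty acid enzymes (median −0.88) were lower. The 3 higher were Cyp51 (0.56), Hsd17b7 (0.34), which was not called with library size alone (adjusted p = 0.357), and Ggps1 (0.21), whose sign then turned. Without induced mouse Dux library 1 the counts were 27 lower and 4 higher. With library size alone, which shifted the median of all genes in this difference to −0.25, they were 33 lower and 1 higher.

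Human DUX4 and luciferase differed in opposite ways for the pathways. Of 20 sterol enzymes, 14 had a higher log2 fold change with human DUX4 than with luciferase, and 5 a lower one (median 0.33). Of those with a higher value, 10 were called lower in both lines, so that the fall with human DUX4 was smaller. Of 8 fatty acid enzymes, 0 were higher and 6 lower (median −0.56). Over all 38 genes the counts were 18 higher and 14 lower, where 28.3% of all genes were higher and 26.7% lower. Leaving out each library in turn gave 12 fits. The calls on Abcg1 (0.96) and Insig1 (−0.23) were lost in 9 and 7 of these. Those on Hsd17b7 (0.21) and Mvk (0.32) were lost in 3 and 1. Idi1 (1.66, SE 0.0819), Acat2 (1.23), Cyp51 (1.20), Tm7sf2 (1.003) and Sqle (0.81) led the sterol enzymes that were higher, and Ebp (−1.19, SE 0.0983), Lbr (−0.95), Mvd (−0.73), Lss (−0.64) and Dhcr7 (−0.51) were those that were lower. The calls on Fasn (−0.49) and Acaca (−0.52) were each lost in 10 of the 12 fits that left out a library. The adjusted p was up to 0.075 for Fasn. Those fits kept all mouse Dux libraries, which also enter the estimate of each gene's spread. Both calls held with only the compared groups in the fit. That on Fasn was lost with median-of-ratios scaling (adjusted p = 0.052) and with DESeq2 (adjusted p = 0.0542).

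**Figure D4:**
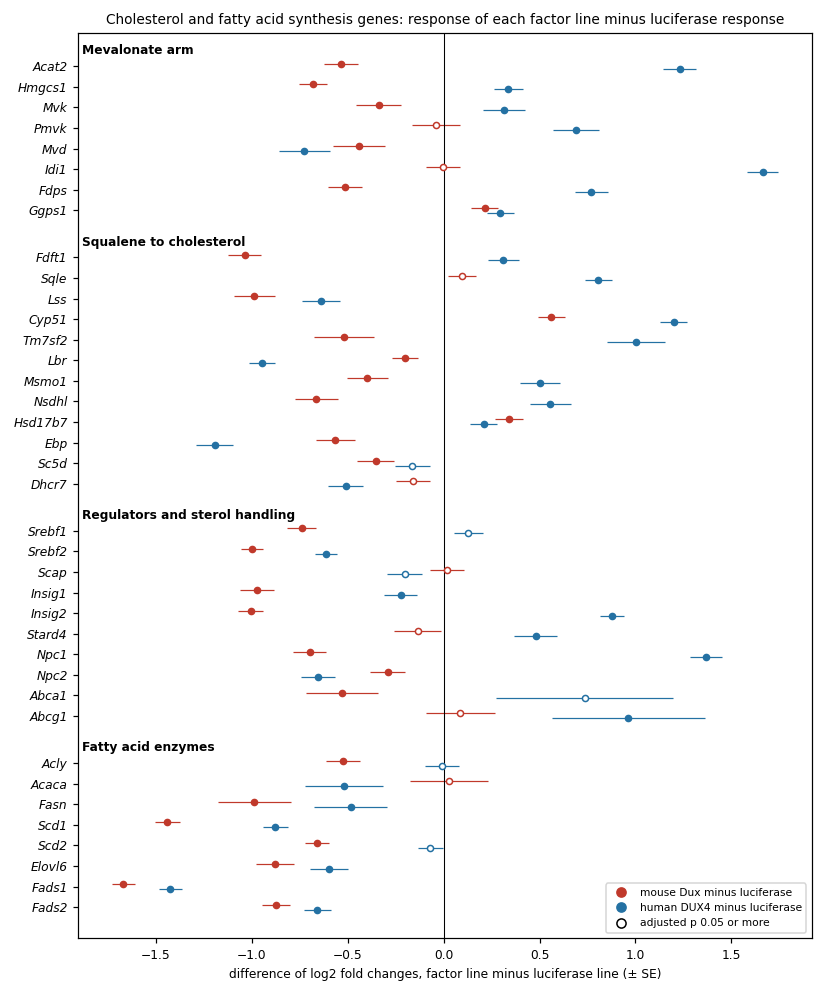
Difference of log2 fold changes, factor line minus luciferase line, for each of the 38 genes (x axis, points with ± SE), for mouse Dux and human DUX4, by role; open points had an adjusted p of 0.05 or more. Blue human DUX4 points of the mevalonate arm lie right of 0 except Mvd, and points of the fatty acid enzymes lie left of 0 or next to it for both factors.

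Set directly against each other, the mouse Dux response was lower than the human DUX4 response for 27 of 38 genes and higher for 6, where 32.3% of all genes were lower and 32.9% higher. Sterol enzymes were lower in 13 and higher in 3 of 20 cases, and fatty acid enzymes lower in 7 and higher in 1 of 8. The higher one was Acaca (0.55), whose call was lost without induced mouse Dux library 2 or 3 or uninduced library 1 (adjusted p up to 0.0676), with only the compared groups (0.0536) and with library size alone (0.134). Of the lower ones, Fasn (−0.50) was not called in 4 of the 12 fits that left out a library (adjusted p up to 0.0666) nor with only the compared groups (0.0615), and was −0.27 without induced mouse Dux library 1. The call on Fads2 (−0.22) was lost without induced mouse Dux library 1 (−0.14, adjusted p = 0.0813). With library size alone the counts over the 38 genes were 30 lower and 2 higher. The sterol enzymes with a higher mouse Dux response were Lbr (0.75), Ebp and Dhcr7, those that fell more with human DUX4. Of the 38 genes, 27 were called lower in both factor lines, 3 (Ggps1, Abca1 and Abcg1) higher in both, and 3 (Tm7sf2, Insig2 and Npc1) lower with mouse Dux and higher with human DUX4. Of all 13602 genes, 14.7% were lower in both, 13.6% higher in both and 10.6% lower with mouse Dux and higher with human DUX4. Without induced mouse Dux library 1 the counts were 26 lower and 6 higher.

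The uninduced clones already differed. Against the uninduced luciferase clone, 32 of 38 genes were higher and 4 lower in the uninduced mouse Dux clone, where 32.2% of all genes were higher and 33.1% lower. In the uninduced human DUX4 clone 32 were higher and 6 lower, where 36% of all genes were higher and 37% lower. All sterol enzymes but Ggps1 were higher in both clones, with a median log2 difference over the 20 of 1.06 for mouse Dux and 1.68 for human DUX4, and all 8 fatty acid enzymes were higher, with medians of 0.78 and 0.72. These comparisons share the uninduced luciferase libraries. Abca1, Npc1, Srebf2 and Ggps1 were lower in both clones, and Abcg1 and Npc2 in the human DUX4 clone. The call on Srebf2 in the human DUX4 clone (−0.10) was lost whichever of the 6 libraries was left out (adjusted p up to 0.137), and that on Ggps1 in the mouse Dux clone (−0.14) in 4 of 6 such fits. Acat2 had 288, 293 and 292 CPM in uninduced human DUX4 libraries, 194, 187 and 191 CPM in uninduced mouse Dux libraries and 59.4, 57.6 and 60.6 CPM in uninduced luciferase libraries. Sqle had 822, 834 and 839 CPM in uninduced human DUX4 libraries, 267, 259.9 and 253 CPM in uninduced mouse Dux libraries and 202, 200.3 and 208 CPM in uninduced luciferase libraries. No libraries of these clones overlapped for either gene. The exporter Abca1 had the opposite order, with a log2 difference from the luciferase clone of −5.64 (SE 0.252) for the human DUX4 clone and −1.42 (SE 0.141) for the mouse Dux clone. The luciferase clone also held the highest level of the differentiated muscle markers, and the part of that difference in these results was not tested.

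Other genes of sterol and lipid metabolism, formed a list of 44, of which 42 were tested. With mouse Dux 21 were lower (50%) and 9 higher (21.4%), against 34.8% and 34.1% of all genes (median −0.14). With human DUX4 16 were lower (38.1%) and 15 higher (35.7%), close to the 33.1% and 34.4% of all genes (median −0.02). With luciferase 12 were lower (28.6%) and 11 higher (26.2%), against 16.4% and 14.7% of all genes (median 0.02). Acss2 and Aacs, which activate acetate and acetoacetate for these pathways, fell in all 3 lines, with −1.75 and −1.44 with mouse Dux, −1.44 and −0.70 with human DUX4, and −0.75 and −0.67 with luciferase. Genes of fatty acid activation and storage went other ways. The acyl-CoA synthetase gene Acsl1 rose with mouse Dux (1.74) and human DUX4 (2.11) and by 0.35 with luciferase, while Acsl3 fell, with −1.42, −0.27 and −0.56 in the mouse Dux, human DUX4 and luciferase lines. With human DUX4 there were rises of the malic enzyme gene Me1 (1.36), the glycerol acyltransferase gene Gpam (1.51), the dehydratase gene Hacd3 of fatty acid elongation (1.88), the ferredoxin gene Fdx1 (2.22), the ubiquitin ligase gene Mylip (1.02) and the NF-Y subunit gene Nfya (1.18), whose product binds CCAAT. Nfya also rose by 0.92 with mouse Dux and 0.27 with luciferase. Acacb rose with human DUX4 to 3.17 ± 0.451 CPM, against 0.341 ± 0.101 CPM in uninduced libraries (SD, n = 3 each). With mouse Dux, Dgat2 of triglyceride synthesis rose (1.82) and the phosphatidate phosphatase gene Lpin1 fell (−1.38). Pdss1, which makes the side chain of coenzyme Q from the same isoprenoid units, rose with mouse Dux (0.74) and fell with human DUX4 (−1.11) and luciferase (−0.73).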

How the data were processed

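The deposited values are raw read counts per gene in whole numbers, with no scaling by the authors. The tools listed in the submitters' processing notes are Bowtie2 2.2.3, TopHat2 2.0.12 and CASAVA, and the build is mm10. The sources used here do not give how reads were counted, on which annotation or whether by strand. Reads of overlapping genes are therefore uncertain: 14 of the 38 genes share exon bases with another gene. Genes were kept by edgeR's filterByExpr by group, and library sizes were scaled by TMM. CPM use these sizes. edgeR 4.0.16 in R 4.3.3 fitted 1 mean per group, 6 in all, to the 18 libraries together. The quasi-likelihood F test was two-sided, with Benjamini-Hochberg adjustment over 13602 genes. The standard error is the log2 fold change divided by the square root of F, and 95% intervals are 1.96 SE wide on each side. P-values measure the spread between cultures of 1 clone, pooled over lines. Tests were checked on simulated counts, with equal means in both mouse Dux groups except for a set of changed genes. The simulation held no outlying library and no spread particular to a gene. It therefore does not check the calls against those features of the mouse Dux libraries. Positions and exon lengths are from GENCODE vM21 (GRCm38, the same build as mm10), matched for all 38 genes by Ensembl ID.

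The members and lists were chosen with earlier results of these data known. Values in every library were to be given for named regulators, the largest changes by role, members called in opposite directions and members called in the luciferase response. Since 34 of 38 met the last condition, the plot of all genes shows the library values of all 38, and the text prints those of the genes it describes in full. Other pathway genes were named where called with a log2 change of at least 1 in a factor line, and 2 such genes are not reported here. Alternatives were median-of-ratios scaling, library size alone, no filter on low counts, only the compared groups in the fit, DESeq2 1.42.0, the replicate number as a block, and leaving out each library.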

Additional observations from a re-analysis of the deposited data

Results flagged for a closer look

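Responses to doxycycline that differed between lines, by the test of the difference itself, are listed here where the log2 difference was at least 1 in size. Between mouse Dux and luciferase, 3 of the 38 genes had a higher and 27 a lower mouse Dux response. The shares of all genes were 30.4% higher and 29.5% lower. The differences of at least 1 were Fads1 (−1.67), Scd1 (−1.44), the squalene synthase gene Fdft1 (−1.04), Insig2 (−1.01) and Srebf2 (−1.002).

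Between human DUX4 and luciferase, 18 genes had a higher and 14 a lower human DUX4 response. The shares of all genes were 28.3% higher and 26.7% lower. The higher ones of at least 1 were Idi1 (1.66), Npc1 (1.37), Acat2 (1.23), Cyp51 (1.20) and Tm7sf2 (1.003). The lower ones were Fads1 (−1.43) and Ebp (−1.19).

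Between mouse Dux and human DUX4, 6 genes had a higher and 27 a lower mouse Dux response. The shares of all genes were 32.9% higher and 32.3% lower. The differences of at least 1 were Npc1 (−2.07), Insig2 (−1.88), Acat2 (−1.77), Idi1 (−1.67), Tm7sf2 (−1.52), Fdft1 (−1.35), Fdps (−1.28), Abca1 (−1.26), Nsdhl (−1.22) and Hmgcs1 (−1.02). The call on Abca1 was lost in 3 of the 12 fits that left out a library (adjusted p up to 0.131), and over all 12 its difference lay between −2.02 and −0.85. These comparisons share libraries, so they are not separate evidence.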

How the results depend on the processing

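Of 4332 values of single genes under alternatives, 4138 kept their direction and their side of the threshold, 123 were no longer called, 36 became called and 35 turned direction. Of those that turned, 30 were called neither before nor after. With library size alone, Ggps1 (−0.0028) and Scap (−0.0846) turned in the mouse Dux response, Acat2 (−0.0400) in the human DUX4 response, Ggps1 (−0.0462), Sqle (−0.165), Scap (−0.244), Abcg1 (−0.174) and Acaca (−0.231) in mouse Dux minus luciferase, and Hsd17b7 (−0.0733) in mouse Dux minus human DUX4. Acat2 with human DUX4 also turned with no filter on low counts (−0.00701) and with only the compared groups (−0.0172). With median-of-ratios scaling and DESeq2, Idi1 in mouse Dux minus luciferase turned to 0.0247 and 0.0238, and Acly in human DUX4 minus luciferase to 0.0247 and 0.0244. Over the fits that left out a library, values that turned in at least 1 ranged from −0.0137 to 0.0119 for Acat2 with human DUX4. In mouse Dux minus luciferase they ranged from −0.146 to 0.0457 for Pmvk, −0.0753 to 0.067 for Idi1, −0.063 to 0.0553 for Scap, −0.0149 to 0.153 for Abcg1 and −0.13 to 0.251 for Acaca. They ranged from −0.0319 to 0.0073 for Acly in human DUX4 minus luciferase, and from −0.0089 to 0.0651 for Scap between the uninduced mouse Dux and luciferase clones. Library size alone also changed counts of members called higher, to 2 in the mouse Dux response, 1 in mouse Dux minus luciferase and 2 in mouse Dux minus human DUX4. The TMM factors, which library size alone leaves out, were 0.896 to 0.908 in induced and 1.06 to 1.07 in uninduced mouse Dux libraries. The 10 genes with the most counts held 12.4% to 13.8% of counts in the induced and 4.52% to 4.57% in the uninduced ones. The cause was not tested. No other count moved by over 1.5 times.

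Leaving out each library gave 32 to 33 lower and 3 to 4 higher with mouse Dux, 28 to 29 lower and 5 to 6 higher with human DUX4, and 28 to 29 lower and 3 higher with luciferase. Mouse Dux minus luciferase had 26 to 27 lower and 3 to 4 higher, human DUX4 minus luciferase 11 to 14 lower and 15 to 18 higher, and mouse Dux minus human DUX4 25 to 28 lower and 4 to 7 higher. The uninduced mouse Dux clone had 32 higher and 3 to 4 lower, and the uninduced human DUX4 clone 31 to 32 higher and 5 lower.

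The replicate numbers were not taken to pair cultures, since the correlations of same-numbered libraries were not every one over 0.1. Induced and uninduced mouse Dux libraries had 0.219, 0.105 and 0.0802 for numbers 1, 2 and 3. The other correlations were −0.0421 to 0.0308. Whether the mouse Dux cultures of 1 number shared their handling was not tested. With the replicate block the counts were 32 lower and 4 higher with mouse Dux, 29 and 6 with human DUX4, and 30 and 4 with luciferase. The block ended no call and added 1, on Mvd in mouse Dux minus human DUX4. Counting error limits Abca1 and Abcg1 in the human DUX4 line, at 2.18 CPM or less.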
